A study of Ovis aries with 2 samples.

Results

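KIT-negative skin leukocytes are the cells of Hu sheep lambskin that carried RNA of general leukocyte genes but no detected RNA of KIT, the stem cell factor receptor that marks mast cells in skin. A cell was included when at least 3 of PTPRC, FCER1G, TYROBP, LAPTM5, SRGN, CD52 and CORO1A had a value above 0 and KIT had the value 0. CD52 was not analysed here, so the cells were selected on the UMI values of the other 6 of the 7 genes and of KIT. The rule selected 162 of the 14037 cells, of which 115 came from straight wool skin and 47 from curly wool skin. Levels of these genes and of KIT therefore describe how the cells were chosen and are no finding.

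The skins were taken at the age of 3 days from the body side of Hu Sheep lambs with straight wool or with curly wool, called waved wool in the sample labels. Skins of 3 lambs were pooled for each wool type, and a suspension from isolated follicles was mixed with one from the whole skin for 10x Genomics single-cell RNA-seq. Each wool type is thus 1 library, the mixing can set the share of a cell type, and no spread between lambs is known. No test between wool types was made, and every difference given here lacks a replicate check.

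Leukocytes of the skin include several lineages with distinct tasks. Mast cells store proteases and histamine in granules and bind IgE through the receptor built from FCER1A, MS4A2 and FCER1G. Dendritic and Langerhans cells take up antigen and show it on MHC class II molecules, which CD74 escorts through the cell, and macrophages clear debris and make complement C1q.

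The library of straight wool skin held 6452 cells and 57956122 UMIs (a UMI marks 1 captured RNA molecule), and that of curly wool skin held 7585 cells and 77634565 UMIs. The 2 libraries shared 70 cell barcodes, and 1 of the 115 straight and 0 of the 47 curly KIT-negative leukocytes had such a barcode. Levels are UMIs summed over a class of cells in 1 library and scaled to a total of 1000000 UMIs of that class (CPM). Intervals are exact 95% Poisson intervals for levels and exact Clopper-Pearson intervals for shares, and both cover counting error only.

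KIT-negative leukocytes made up 1.78% of the straight library (1.47 to 2.14%) and 0.620% of the curly library (0.456 to 0.823%). The share was thus higher in straight wool skin, and the intervals did not overlap. Cells that met the same rule for leukocyte genes but had KIT RNA, the KIT-positive leukocytes, numbered 164 in straight skin (2.54%) and 31 in curly skin (0.409%). With at least 5 leukocyte genes required, the KIT-negative shares were 0.201% (0.107 to 0.344%) and 0.211% (0.121 to 0.342%). These intervals covered nearly the same range, so no difference between the libraries was seen there. KIT was at 0 in 41.2% of the straight cells with at least 3 of the leukocyte genes (35.4 to 47.2%) and in 60.3% of the curly ones (48.5 to 71.2%). When each cell was thinned to 2000 UMIs, which left out 1037 straight and 1533 curly cells, these values were 54.7% and 75%. KIT at 0 was thus more frequent at the lower depth.

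The KIT-negative leukocytes were shallow cells. Their medians were 3071 and 3000 UMIs in straight and curly skin, against 7601 and 7556 UMIs in the cells outside the leukocyte rule, and 3895 and 2713 UMIs in the KIT-positive leukocytes. All their UMIs summed to 544578 in straight and 275846 in curly skin, so that a gene without a UMI may lie at up to 3 counts, or 5.51 and 10.9 CPM. Among them 10.4% of straight and 14.9% of curly cells were among the highest 6% of doublet scores of their library, against 5.90% and 5.91% of the cells outside the rule.

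The leukocyte genes that chose the cells were unevenly spread over them. SRGN, the core protein of the granule proteoglycan serglycin, had a UMI in 113 straight and 46 curly cells, LAPTM5 in 111 and 44 cells and FCER1G in 109 and 42 cells. PTPRC, which encodes the pan-leukocyte antigen CD45, had one in only 27 straight and 22 curly cells, TYROBP in 29 and 22 and CORO1A in 20 and 20. The trio of FCER1G, LAPTM5 and SRGN without any other was the most frequent combination, with 65 straight and 13 curly cells, while all 6 genes were found together in 7 straight and 11 curly cells. SRGN had a UMI in 5.65% of straight and 1.80% of curly cells outside the rule, FCER1G in 1.64% and 1.03%, and CORO1A in 3.26% and 2.34%.

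Cells at the edge of the rule differed from those well inside it. With exactly 3 of the genes, as in 71 straight and 19 curly cells, CD74 stood at 189.8 and 760.4 CPM, and with all 6 it stood at 20594 and 17133 CPM. Cells with 2 of the genes and KIT at 0, which lie just outside, numbered 86 and 37 and had CD74 at 29.1 and 165 CPM and the basal keratin KRT5 at 5640.4 and 6825 CPM. Those with exactly 3 had KRT5 at 2629 and 1233 CPM. More leukocyte genes thus went with more CD74, and the cells just outside carried more keratin RNA.

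Most of the KIT-negative cells with a recognisable lineage carried mast cell genes. Of a list of 10 such genes, at least 3 were detected in 78 of the 115 straight cells (67.8%, 58.5 to 76.2%) and in 21 of the 47 curly cells (44.7%, 30.2 to 59.9%). At least 3 genes of the macrophage, the monocyte and neutrophil or the dendritic and Langerhans cell list, without those of B and plasma cells or T cells, were found in 13 straight cells (11.3%) and 15 curly cells (31.9%, 19.1 to 47.1%). A further 3 straight and 2 curly cells had at least 3 genes of the B and plasma cell or of the T cell list, each of them together with at least 3 genes of the dendritic and Langerhans cell list, and 21 straight (18.3%) and 9 curly cells (19.1%) reached 3 genes on none of these lists. No cell reached 3 genes of the mast cell list together with 3 of another of these immune lists. Among KIT-positive leukocytes at least 3 of the mast cell genes were detected in 93.9% of straight and 90.3% of curly cells. Cells with mast cell RNA were thus less frequent among the cells with KIT at 0, but many remained.

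**Figure D1:**
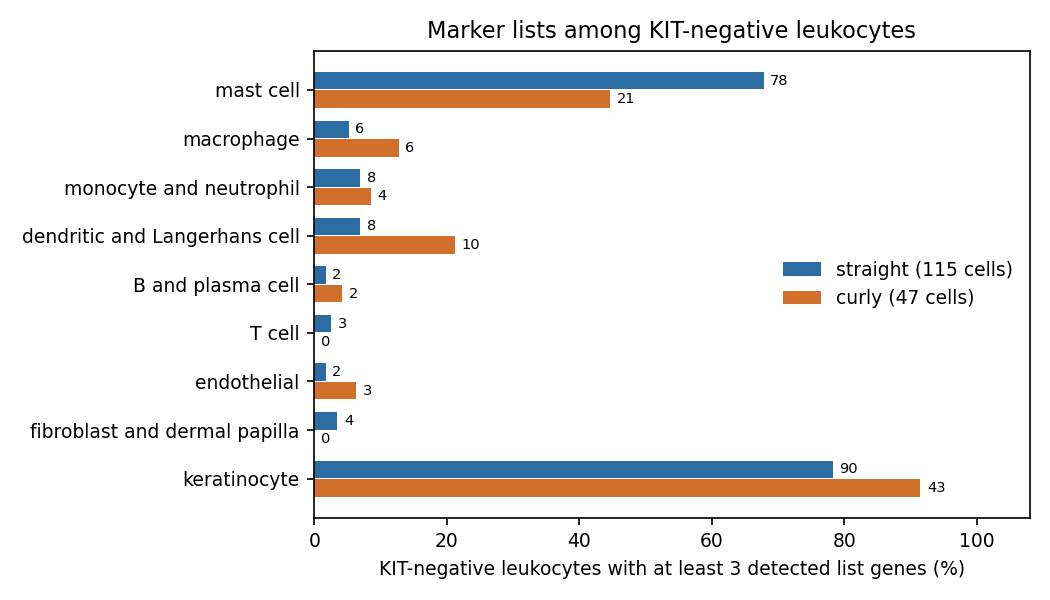
Percentage of KIT-negative leukocytes of straight (blue, 115 cells) and curly (orange, 47 cells) wool skin with at least 3 detected genes of each marker list, with the number of cells beside each bar. The mast cell list was reached by 78 straight and 21 curly cells, and the keratinocyte list by 90 and 43 cells.

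Lists of other cell types the suspension could hold were also counted. At least 3 of the 10 keratinocyte genes had a UMI in 90 straight (78.3%) and 43 curly cells (91.5%), while 3 endothelial genes were seen in 2 and 3 cells and 3 fibroblast genes in 4 straight and 0 curly cells. The summed level of the keratinocyte list was 5689 and 6968 CPM in straight and curly KIT-negative leukocytes, against 23505 and 25375 CPM in the cells outside the rule. Keratin RNA was therefore present, but at a lower level than elsewhere. The fibroblast list summed to 244 and 47.1 CPM, the smooth muscle and pericyte list to 169 and 90.6 CPM and the endothelial list to 281 and 500.3 CPM. The part of these cell types in the differences below was not tested.

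Clustering the 162 cells without integration gave 3 clusters, which are described here by the genes that lead them. Cluster 1, led by GCSAML, MCP-3, MCP1, TPSB2 and IL1RL1, held 82 straight cells (71.3%, 62.1 to 79.4%) and 23 curly cells (48.9%, 34.1 to 63.9%). At least 3 mast cell list genes were detected in 70 of its 82 straight and 21 of its 23 curly cells, so most of it carried mast cell RNA. It was still given no cell type name, since no gene of that list was among its 10 leading genes. The list does not hold MCP-3, MCP1 or TPSB2, which encode mast cell proteases and are among those that lead the cluster. Its curly cells also had a median of only 1924 UMIs, or 25.7% of the median of their library. Cluster 2, led by CCL22, IL23A, PLAUR, BCL2A1 and CXCL8 and with CD83 among its 10 leading genes, is called dendritic cell-like. It held 1 straight (0.870%) and 8 curly cells (17%, 7.65 to 30.8%), so it may be a feature of the curly library as much as a cell type, and under 3 alternative settings of the clustering it was not formed. Its straight cell and 1 of its curly cells were called doublets. Cluster 0, led by several genes without a name and by C1QC and C1QA, held 32 straight (27.8%) and 16 curly cells (34.0%) with medians of 9160.5 and 9346.5 UMIs. Of its 48 cells 14 were called doublets, and it was left unnamed.

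None of the 99 cells with at least 3 detected mast cell list genes had as many as 5 CD74 UMIs. In cluster 1 the 10 mast cell list genes summed to 1 to 37 UMIs per straight cell, with a median of 12.5, and to 3 to 27 UMIs per curly cell, with a median of 11. CD74 reached at most 1 UMI in any cell of this cluster in either library. In the 8 curly cells of cluster 2 CD74 had 48 to 327 UMIs, with a median of 182.5, and in its straight cell 290 UMIs. The mast cell list genes were not absent there, since 7 of these 8 curly cells had such UMIs, with a median of 4.5 and at most 8. Cluster 0 was mixed, and the range of CD74 was 0 to 597 UMIs per straight cell and 0 to 389 UMIs per curly cell, with medians of 0. At least 3 mast cell list genes were detected in 8 of its 32 straight cells but in 0 of its 16 curly cells.

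**Figure D2:**
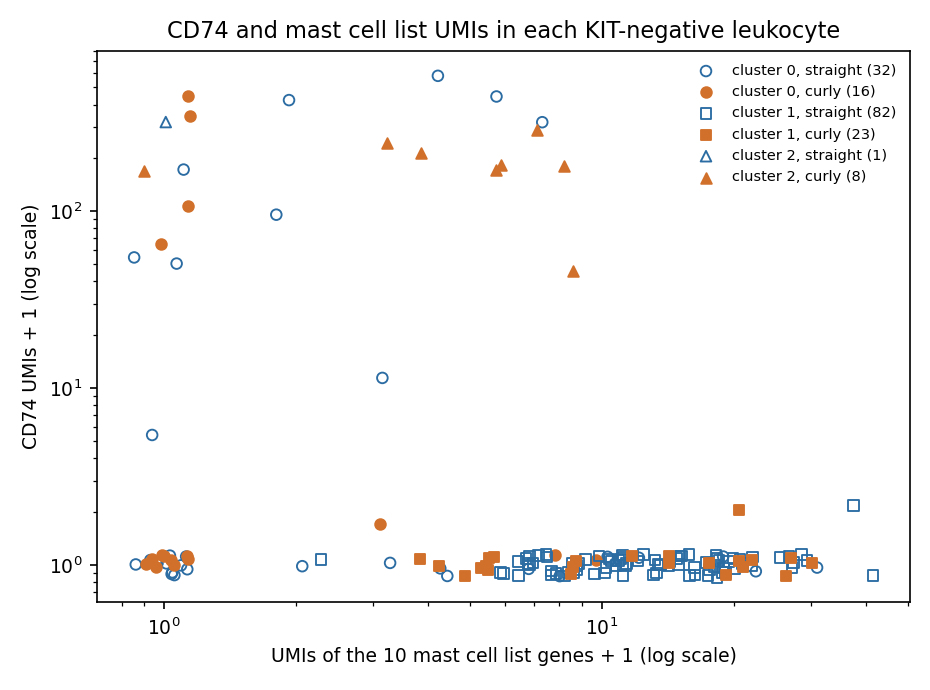
UMIs of the 10 mast cell list genes plus 1 (x axis, log scale) against CD74 UMIs plus 1 (y axis, log scale) in each of the 162 KIT-negative leukocytes, by cluster (shape) and library (open blue straight, filled orange curly), with points slightly jittered so that equal values can be seen. The cells of cluster 1 lie along the bottom, with at most 1 CD74 UMI, and those with the most CD74 have few mast cell UMIs.

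Proteases of mast cell granules were abundant but differed in direction between the libraries. TPSB2, which encodes a tryptase, had 7013 CPM in straight KIT-negative leukocytes (94 of 115 cells) and 1689 CPM in curly ones (24 of 47 cells), a log2 ratio of curly over straight of -2.05 (-2.20 to -1.91). The level in curly cells was thus 4.15-fold lower, but within cluster 1 TPSB2 had 14164 and 9576 CPM, with a log2 ratio of -0.56 (-0.71 to -0.42). In cells outside the rule TPSB2 had a UMI in 4.24% of straight and 0.853% of curly cells, at 18.9 and 2.56 CPM. MCP1, a sheep mast cell proteinase, had 2422 and 1254 CPM in the KIT-negative leukocytes, and 4918 and 7448 CPM within cluster 1. Within cluster 1 the difference in TPSB2 was thus smaller, and that in MCP1 had the opposite direction.

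Other proteases of the same family did not move together. MCP-3, another mast cell proteinase, had 1902 CPM in straight cells (56 of 115) and 228 CPM in curly cells (6 of 47), and it stayed lower within cluster 1, at 3951 and 1368 CPM (log2 ratio -1.53, -1.92 to -1.16). LOC101107261, for which RefSeq gives the synonyms CMA1 and mcp-4 (a chymase), had 5 UMIs in straight cells, or 9.18 CPM, and 33 UMIs in 13 curly cells, or 119.6 CPM. Its log2 ratio was 3.70 (2.34 to 5.42) over all the cells and 5.15 (3.78 to 6.86) within cluster 1, where it had 20.2 and 717 CPM. In the KIT-positive leukocytes LOC101107261 had 200.4 and 540.1 CPM, a log2 ratio of 1.43, and MCP-3 had 4473 and 580.1 CPM, so that the direction was the same in both classes. MCP1, MCP-3 and LOC101107261 are related proteases, and how reads from shared sequence were divided among them is uncertain. CPA3, the mast cell carboxypeptidase, was low, with 49.6 CPM in straight against 18.1 CPM in curly cells (27 and 5 UMIs).

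Enzymes that make or break down lipid mediators and histamine gave the next group. LTC4S, the leukotriene C4 synthase, had 916 CPM in straight cells against 619.9 CPM in curly ones, with a log2 ratio of -0.56, and within cluster 1 it was higher in curly cells, at 2736 against 1800 CPM (log2 ratio 0.60, 0.31 to 0.89). LTC4S was not confined to cluster 1, since 7 of the 8 curly cells of cluster 2 had it. HPGD, which inactivates prostaglandins, had 646 and 228 CPM over all the cells, and 1314 and 1281 CPM within cluster 1. HPGDS, the haematopoietic prostaglandin D synthase, had 24 straight and 3 curly UMIs (44.1 and 10.9 CPM, log2 ratio -2.02, -4.39 to -0.30). HDC, which makes histamine, had 16 and 4 UMIs, or 29.4 and 14.5 CPM. For HPGD the interval of the log2 ratio within cluster 1 spanned 0 (-0.04, -0.46 to 0.37), as did that for HDC over all the cells (-1.02, -3.06 to 0.61).

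Receptors and regulators of the mast cell lineage came next. GATA2, a transcription factor of the lineage, had 241 CPM in straight against 79.8 CPM in curly cells, but 437 and 478 CPM within cluster 1 (log2 ratio 0.13, -0.60 to 0.80). FCER1A, the IgE-binding chain of the high-affinity receptor, had 498 and 156 CPM over all the cells and 1007 and 912 CPM within cluster 1. MS4A2, the beta chain of the same receptor, had 67.9 and 32.6 CPM, and RAB27B, which takes part in granule release, had 202 and 61.6 CPM but also a UMI in 14.4% of straight and 10.2% of curly cells outside the rule. IL1RL1, the receptor of interleukin 33, had 299 CPM in straight against 116 CPM in curly cells, and 627 and 695 CPM within cluster 1. For GATA2, FCER1A and IL1RL1 the interval of the log2 ratio excluded 0 over all the cells and spanned it within cluster 1. NMU, which encodes the neuropeptide neuromedin U, differed in both views. It had 332 CPM in straight cells (53 of 115), whereas all 5 of its curly UMIs lay in 1 cell, and in KIT-positive leukocytes it had 510.4 CPM in straight against 6.67 CPM in curly cells.

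Of the 10 genes of the mast cell list 9 had at least 20 UMIs in the KIT-negative leukocytes, and 7 of them were at least 2-fold lower in curly cells, 1 was at least 2-fold higher (LOC101107261) and 1 was neither (LTC4S). Their median log2 ratio was -1.45. Of all 3970 genes with at least 20 UMIs, 11.1% were at least 2-fold lower and 8.01% at least 2-fold higher in curly cells, with a median log2 ratio of -0.02. The list summed to 2215 CPM in straight and 1189 CPM in curly KIT-negative leukocytes. Within cluster 1 it summed to 4344 and 5928 CPM, the opposite direction. That cluster held 71.3% of the straight but 48.9% of the curly cells. SLC18A2, the monoamine transporter of granules, had 5 and 1 UMIs and was too low to count.

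Cluster 1 can be set beside the KIT-positive leukocytes, the other class with much mast cell RNA. TPSB2 had 14164 CPM in straight cluster 1 cells and 13662 CPM in straight KIT-positive leukocytes, GATA2 437 and 425 CPM, and HPGD 1314 and 1287 CPM. These 3 genes were close in the straight classes. MS4A2 had 133 against 212 CPM, and LOC101107261 was lower in straight cluster 1 cells, at 20.2 (6.57 to 47.2) against 200.4 CPM (169.6 to 235). Among curly cells LOC101107261 was not lower in cluster 1, at 717 against 540.1 CPM. In curly skin LTC4S was higher in cluster 1, at 2736 against 1134 CPM, as was TPSB2, at 9576 against 6081 CPM. Of 2476 genes with at least 50 UMIs in both classes together, 1.13% were at least 2-fold higher and 2.22% at least 2-fold lower in cluster 1 in both libraries. DHRS9, a retinol dehydrogenase named here, like ALOX5AP, after its values were seen, led those that were higher, with 267 against 100.2 CPM in straight and 217 against 80.0 CPM in curly cells. ALOX5AP, the activating protein of 5-lipoxygenase in leukotriene synthesis, had 97.1 against 41.4 CPM and 369 against 80.0 CPM. In curly cluster 1 cells DHRS9 and ALOX5AP rested on 10 and 17 UMIs. The cluster was formed on the expression of its genes, so these values describe it and test nothing.

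**Figure D3:**
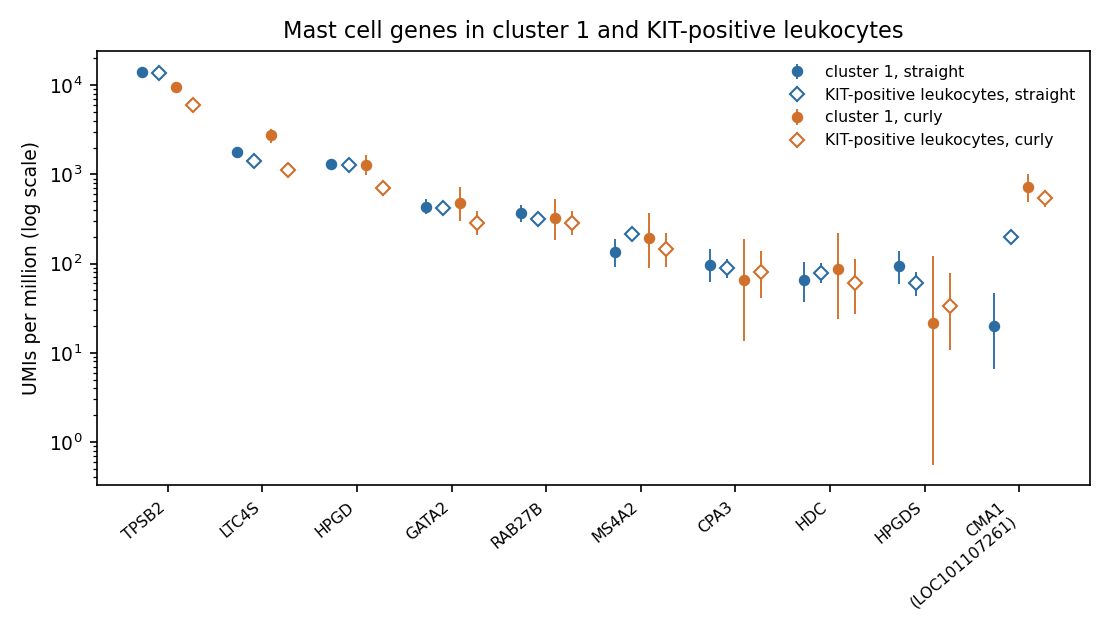
Level in CPM (log scale) of the tryptase gene TPSB2 and of the 9 mast cell list genes with at least 20 UMIs, in cluster 1 of the KIT-negative leukocytes (filled circles) and in KIT-positive leukocytes (open diamonds) of straight (blue) and curly (orange) wool skin, with exact 95% Poisson intervals as bars. TPSB2, GATA2 and HPGD lie close together in the straight classes, while CMA1 (LOC101107261) stands at 20.2 CPM in straight cluster 1 cells and at 717 CPM in curly ones.

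Antigen presentation genes marked the other side of the KIT-negative leukocytes. CD74, the invariant chain of MHC class II, had 4635 CPM in straight cells against 8556 CPM in curly ones, a log2 ratio of 0.88 (0.80 to 0.97). These UMIs lay in 12 of 115 straight and 14 of 47 curly cells, while CD74 had 17.1 and 9.01 CPM in cells outside the rule and 3 and 0 UMIs in KIT-positive leukocytes. At least 5 CD74 UMIs were found in 10 straight cells (8.70%, 4.25 to 15.4%) and in 12 curly cells (25.5%, 13.9 to 40.3%), against 0.470% and 0.386% of the cells outside the rule. The direction turned within cluster 0, where CD74 had 7764 CPM in straight against 5399 CPM in curly cells (log2 ratio -0.52).

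Other genes of class II presentation were also higher in curly cells when all the KIT-negative leukocytes were summed. LOC101109747, for which RefSeq gives the synonym DRA (the class II alpha chain), had 2578 CPM in straight against 6061 CPM in curly cells, in 13 and 16 cells, a 2.35-fold higher level. It was matched by this synonym after its values were seen and is not part of the list counted below. CTSS, the protease that trims the invariant chain, had 881 and 1450 CPM, and IFI30, a thiol reductase of the antigen pathway, had 44.1 and 214 CPM (log2 ratio 2.28, 1.57 to 3.03) against 19.3 and 15.8 CPM in cells outside the rule. CD86, a costimulatory ligand for T cells, had 46 UMIs in each library, or 84.5 and 167 CPM, in 8 straight and 10 curly cells, and 0 UMIs in KIT-positive leukocytes. On the MHC class II list 5 genes had at least 20 UMIs, of which 1 (IFI30) was at least 2-fold higher in curly cells. The remaining 4 were neither 2-fold higher nor 2-fold lower. Their median log2 ratio, with IFI30 included, was 0.88, and over all genes 8.01% were higher and 11.1% lower. Within cluster 0 the direction of the list sum turned, with 7706 CPM for curly skin against 9586 CPM for straight skin. It was also lower for curly skin in cluster 2 (23908.5 against 31942 CPM), where the straight value rests on 1 cell. In cluster 1 it was low but higher for curly skin (195 against 105 CPM).

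Several genes of activated dendritic cells were higher in curly cells, and a few cells carried most of their UMIs. CCL22, a chemokine made by dendritic cells, had 31 UMIs in 2 straight cells, 29 of them in 1 cell, and 350 UMIs in 8 curly cells, or 56.9 and 1269 CPM (log2 ratio 4.48, 3.95 to 5.06). IL23A, a subunit of interleukin 23, had 60.6 and 381 CPM, and 32 of its 33 straight and 74 of its curly UMIs came from 1 cell each. CD83, a maturation marker, had 312 CPM in straight against 874 CPM in curly cells. IRF8, a transcription factor of dendritic cells, had 62.4 and 348 CPM, and FSCN1, which bundles actin in dendrites, had 58.8 and 225 CPM. CD207, the langerin of Langerhans cells, had no UMI in any straight cell but 15 UMIs in 5 curly cells, at least 9.87-fold higher. CCR7, which guides dendritic cells to lymph nodes, had 47.7 and 54.4 CPM, and LAMP3 had 33.1 and 43.5 CPM, and for these 2 genes the interval of the log2 ratio spanned 0 (0.19, -0.83 to 1.16 for CCR7 and 0.40, -0.79 to 1.53 for LAMP3). Of 6 dendritic and Langerhans cell list genes with at least 20 UMIs, 4 were at least 2-fold higher in curly cells and 0 lower. Their median log2 ratio was 1.71, and over all genes 8.01% were higher and 11.1% lower. Within cluster 0 the list summed to 723 CPM in straight and to 599.9 CPM in curly skin, the opposite direction, and cluster 2 held 8 of the 47 curly cells but 1 of the 115 straight cells. Of the 350 curly CCL22 UMIs 345 lay in 7 cells of cluster 2.

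CXCL8, the neutrophil-attracting chemokine also known as interleukin 8, had 2964 CPM in straight cells (15 of 115) and 7856 CPM in curly cells (12 of 47), a log2 ratio of 1.41 and a 2.65-fold higher level. A single straight cell, the called doublet of cluster 2, held 844 of the 1614 straight UMIs. Without the cell with the most CXCL8 in each library the level was 4.61-fold higher in curly cells. Within cluster 0 the direction turned, at 2667 and 872 CPM (log2 ratio -1.61), and in the cells outside the rule CXCL8 was also lower in curly skin, at 46.9 and 18.9 CPM. PLAUR, the urokinase receptor, had 209 CPM in straight against 1602 CPM in curly cells. GPR183, a receptor for oxysterols that steers the migration of immune cells, had 339.7 and 1073 CPM, in 13 and 14 cells, and 0.194 and 0.130 CPM in cells outside the rule.

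Macrophage genes of the complement system were found in few cells, and the intervals of their log2 ratios spanned 0. C1QA and C1QC, chains of complement C1q, had 329 and 386 CPM in straight cells and 369.8 and 479 CPM in curly cells. Both were seen in 4 straight and 5 curly cells, all of cluster 0, and 1 curly cell held 63.7% of the curly C1QA UMIs. MPEG1, a pore-forming protein of phagocytes, had 107 and 163 CPM in 6 cells of each library. APOE, which carries lipids, had 176 and 29.0 CPM and was detected in 32.8% and 46.7% of the cells outside the rule. Of 8 macrophage genes with at least 20 UMIs, 2 were at least 2-fold higher and 1 was at least 2-fold lower in curly cells, with a median log2 ratio of 0.24, against shares of 8.01% and 11.1% over all genes. For the monocyte and neutrophil list this was 1 higher and 1 lower of 4 genes.

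Lymphocyte genes were found in few cells. No KIT-negative leukocyte had a UMI of the T cell receptor complex genes CD3D, CD3E, CD3G or CD247, and 3 counts of the total, the limit that a count of 0 allows, are 2.61% of straight and 6.38% of curly cells with such a UMI, which does not limit the share of cells expressing these genes. In cells outside the rule 4.68% of straight and 2.10% of curly cells had such a UMI. XCL1, a chemokine of NK and T cells, lay in 1 cell of each library, with 193 CPM from the straight and 94.3 CPM from the curly cell. CD79A, a chain of the B cell receptor complex, had 7 and 21 UMIs in 2 cells of each library, DERL3, which serves protein quality control in plasma cells, had 4 and 29 UMIs, and JCHAIN, which joins antibody chains, had 13 and 17 UMIs. The 3 genes of the B and plasma cell list with at least 20 UMIs were at least 2-fold higher in curly cells. Their median log2 ratio was 2.57, and over all genes 8.01% were higher and 11.1% lower. For CD79A, DERL3 and JCHAIN 1 curly cell held 20, 28 and 16 of these UMIs, and without the cell with the most UMIs in each library the log2 ratios were 0.00, 0.02 and -0.57.

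Interferon response genes were higher in curly cells, as they were in the rest of the curly library. IFI6, an interferon-induced mitochondrial protein, had 43 UMIs in straight cells (11 of 115) and 1066 UMIs, or 3864 CPM, in curly cells (40 of 47), a log2 ratio of 5.61 (5.17 to 6.09). Outside the rule it had 74.0 and 4116 CPM, a log2 ratio of 5.80, and in KIT-positive leukocytes 32.1 and 4081 CPM. ISG15, a ubiquitin-like modifier, had 125 and 584 CPM (log2 ratio 2.22) and MX1, an antiviral GTPase, 5 and 29 UMIs (log2 ratio 3.52), against log2 ratios of 3.60 and 3.45 outside the rule. All 5 genes of this list with at least 20 UMIs were at least 2-fold higher in curly cells. Their median log2 ratio was 3.52, and over all genes 8.01% were higher and 11.1% lower. Outside the rule these 5 genes were higher in curly skin as well. Within cluster 1 IFI6 had 12.1 and 3301 CPM. BST-2A, an interferon-induced tether of budding virus, had 0 UMIs in both libraries there, and 65 UMIs in curly cells of cluster 0. In curly cluster 1 cells 0 UMIs allow up to 65.1 CPM, and BST-2A had 65.7 CPM in curly cells outside the rule. The count of 0 thus does not show a lower level there.

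**Figure D4:**
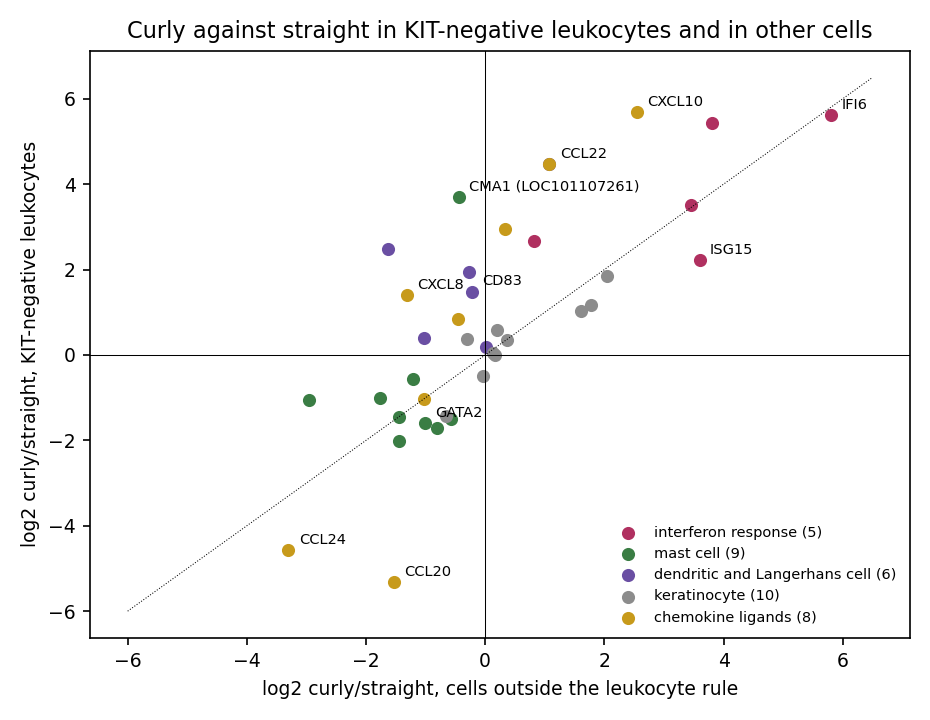
Log2 ratio of curly over straight in KIT-negative leukocytes (y axis) against the same ratio in the cells outside the leukocyte rule (x axis) for the genes of 5 lists with at least 20 UMIs in the KIT-negative leukocytes, with the line of equal ratios dotted and 0.5 UMI added where a library had 0. IFI6 lies near the dotted line (5.61 and 5.80), whereas CCL22, CXCL8 and CMA1 (LOC101107261) lie above it.

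Over all genes, 1825 had at least 50 UMIs in the KIT-negative leukocytes, and 266 of them (14.6%) differed at least 2-fold between the libraries, 123 higher (6.74%) and 143 lower (7.84%) in curly cells. Within cluster 1, 709 genes had 50 UMIs, of which 5.36% were at least 2-fold higher and 8.04% at least 2-fold lower in curly cells. Among the 10 with the smallest ratio were genes of connective tissue in addition to NMU and MCP-3. COL1A1, the collagen I chain, had 54 UMIs in straight cells, 36 of them in 1 cell, and 0 in curly cells, at least 9.12-fold lower. CRABP1, a retinoic acid binding protein, had 77 and 4 UMIs with 56 in 1 straight cell, MGP, an inhibitor of mineralization, had 75 and 3, and PCOLCE, which aids collagen processing, had 53 and 3 with 36 in 1 straight cell. CDO1, a cysteine dioxygenase, had 73 UMIs in 32 straight cells and 4 UMIs in 3 curly cells. Without the cell with the most COL1A1 this gene was at least 3.00-fold lower, and no straight cell held more than 6 CDO1 UMIs.

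Compared with all other cells of their library, 226 of the 1825 genes (12.4%) were at least 4-fold higher in the KIT-negative leukocytes in both libraries, leaving out the genes of the rule. The 1825 genes were admitted on their UMIs in the KIT-negative leukocytes alone, so genes low in these cells could not enter the share. MPEG1, GPR183, CD86, C1QA, C1QC, XCL1, GPR171 and MS4A8 were among the 15 with the largest ratios, the other 7 being loci without a gene name. Compared with KIT-positive leukocytes, 79 of 3438 genes (2.3%) were at least 4-fold higher and 4 (0.116%) at least 4-fold lower in both libraries. Those that were higher included genes of antigen presentation and chemotaxis. CD74 was at least 428-fold higher than in KIT-positive leukocytes of curly skin, CXCL8 at least 393-fold and PLAUR at least 80.1-fold, and C1QC was at least 96.2-fold higher in straight and at least 23.9-fold higher in curly skin. The 4 genes that were lower were WNT2B, PTGER3, LOC101107261 and TFRC. For LOC101107261 this holds over all the KIT-negative leukocytes, since in curly skin its level within cluster 1 was not lower. WNT2B, a Wnt ligand, had 8 UMIs against 76 in straight skin, PTGER3, a prostaglandin E2 receptor, had 7 against 45, and TFRC, the transferrin receptor, had 8 against 45, while in curly skin these 3 genes had 0 UMIs against 1 to 3, so that their place among the 4 rests there on the 0.5 UMI added to a count of 0.

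Class I presentation was described by a list of 11 genes. B2M, the light chain of MHC class I, had 813 and 2255 CPM in straight and curly KIT-negative leukocytes (log2 ratio 1.47, 1.29 to 1.65), against 437 and 747 CPM outside the rule (log2 ratio 0.77). The KIT-positive leukocytes had 315 and 1287 CPM, so B2M was higher in curly cells there too, although 1 cell held 39.9% of those curly UMIs. PSMB9, an immunoproteasome subunit, had 263 and 449.5 CPM, well above the 18.7 and 31.2 CPM of the cells outside the rule. Of 8 genes of this list with at least 20 UMIs, 3 were at least 2-fold higher and 0 were lower in curly cells. Their median log2 ratio was 0.87, and over all genes 8.01% were higher and 11.1% lower. Of 12 genes of lysosomes and proteases 3 were higher and 0 lower, with a median of 0.48 and against 8.01% of all genes that were higher, the 3 being CTSH, CTSZ and LGMN.

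Secreted signals that can reach the hair follicle were mostly low. TGFB1, which can drive follicle regression, had 171 CPM in straight cells (55 of 115) and 87.0 CPM in curly cells (15 of 47), and 17.2 and 13.1 CPM in the cells outside the rule. VEGFA, which supports vessels around the follicle, had 125 and 79.8 CPM, and HBEGF, a ligand of the EGF receptor, had 88.1 and 83.4 CPM. TNF had 4 and 2 UMIs, which was too low for a ratio. Of 10 such genes with at least 20 UMIs, 1 was at least 2-fold higher (EREG) and 3 were at least 2-fold lower in curly cells, among them PDGFA, with a median log2 ratio of -0.36. Over all genes 8.01% were higher and 11.1% lower, so the single gene that was higher is near the background. For TGFB1 the interval of the log2 ratio excluded 0 (-0.97, -1.69 to -0.31), and for VEGFA it spanned 0 (-0.65, -1.41 to 0.07). In curly cells 16 of the 17 EREG UMIs lay in 1 cell.

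Chemokine ligands moved in both directions. Of 8 with at least 20 UMIs, 4 were at least 2-fold higher and 3 at least 2-fold lower in curly cells. Their median log2 ratio was 1.12, and over all genes 8.01% were higher and 11.1% lower. CCL20, which attracts Langerhans cell precursors, had 39 UMIs in 9 straight cells, 31 of them in 1 cell, and 0 in curly cells, and CCL24 had 47 UMIs in 3 straight cells and 1 in a curly cell. CXCL10, an interferon-induced chemokine, had 1 UMI in a straight cell but 26 UMIs in 2 curly cells, 25 of them in 1 cell. CCL14 had 21 and 82 UMIs, 70 of the latter in 1 cell. In each of these 4 chemokines 1 cell held most of the UMIs of the library with the higher level.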

How the data were processed

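Per the labels and the methods of the study, reads of 2 10x Genomics libraries were processed with Cell Ranger (the labels give version 3.0.2, the methods another) against Oar_rambouillet_v1.0 and filtered in Seurat. The design text states 7263 straight and 8567 curly cells, while the table holds 6452 and 7585. The authors deposited natural log values of 1 plus UMIs scaled to 10000 per cell, a scale that was read from the values. The plan had assumed counts, so each cell's UMI counts were recovered by undoing the log and the scaling of the deposited table, which gave 100% whole numbers within 0.01.

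The cells, lists and comparisons were chosen with earlier results of these data known. UMIs were summed per class and library. A ratio was counted as 2-fold or 4-fold among genes with at least 50 UMIs, or 20 UMIs for lists, and where a sum was 0 a value of 0.5 UMI was added, or 3 counts for a bound. The 162 cells were clustered with scanpy 1.11.5 (1000 variable genes, 20 principal components, 15 neighbours, resolution 0.6). The highest 6% of Scrublet scores were called doublets and kept. The comparison was tested on simulated data. Python 3.11.15 was used with scipy 1.17.1, numpy 2.4.6, matplotlib 3.10.9 and pandas 2.3.3. Genes named are those of the rule, examples of the lists, the 15 highest over all other cells, the 10 at each end of the comparisons over all these cells and the 10 leading genes of each cluster. Of 360 genes on 30 lists 286 were in the table, under RefSeq synonyms (ARS-UI_Ramb_v3.0) where needed. CD52 was not analysed here. Values of 1 further gene are not reported here.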

Additional observations from a re-analysis of the deposited data

How the results depend on the processing

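No paired analysis was possible because each wool type is 1 library and the labels give no replicate numbers. Removal of called doublets and thinning to 2000 UMIs left the shares of 1.78% in straight and 0.620% in curly skin within their intervals. The shares were 3.12% and 1.11% with at least 2 leukocyte genes and 0.682% and 0.369% with 4. With 5 they were 0.201% and 0.211%, with intervals of nearly the same range, and with 3 of the 5 marker genes 0.248% and 0.237%. Among cells with the larger gene minimum of the study they were 0.580% and 0.301%. With CPA3, MS4A2, HDC and HPGDS also at 0 they were 0.930% and 0.448%.

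The 266 genes past 2-fold became 758 at 20 UMIs, 76 at 200 UMIs, 4794 without a filter, 162 with at least 4 leukocyte genes and 170 with the 4 mast cell genes at 0. After seeing the data, cluster 1 alone (95) and the cells without cluster 1 (163) were added. Of the genes called, 46.2% were higher in curly cells, against 57.8% with the mean of per-cell CPM and 59.3% with at least 4 leukocyte genes. The 226 genes over all other cells became 419, 75 and 1162 at 20 UMIs, 200 UMIs and no filter, and the 83 past 4-fold against KIT-positive leukocytes became 141, 35 and 289. Of list genes, 40 were higher and 27 lower, against 21 and 14 at 50 UMIs and 14 and 7 in cluster 1 alone, and 15 were lower with the mean of per-cell CPM. These counts follow from the genes and cells admitted.

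The 3 clusters became 8 at resolution 1.0. Clusters are counted here by the immune list with the highest mean log2 ratio over the other KIT-negative leukocytes, if at least 2-fold. On this measure cluster 1, with 71.3% of straight and 48.9% of curly cells, counted as led by mast cell genes. Such clusters held 49.6% and 34.0% at resolution 1.0, and 30.4% and 14.9% with 10 principal components. At resolution 1.0 a further cluster of 25 straight and 7 curly cells just missed the cut, with a highest mean log2 ratio of 0.992. With 10 principal components a cluster of 49 straight and 14 curly cells scored highest on the NK and cytotoxic list, at 1.69. These shares thus depend on the label given to each cluster as well as on its cells. A cluster led by dendritic cell genes (0.870% and 17%) was not formed at resolution 0.3, with 10 principal components or with 2000 variable genes (0% and 0%), and held 0% of straight cells without called doublets. The cause of the changes in clusters was not tested.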

Other observations

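The dissociation response, a set of immediate early and heat shock genes that rise when tissue is digested, was summed as well. Its 21 genes summed to 8339 CPM in straight against 10002 CPM in curly cells, and 2 of the 17 genes with at least 20 UMIs were at least 2-fold higher in curly cells, namely FOS and SOCS3, against 8.01% of all genes with 20 UMIs, so this count is near the background. FOS had 646 and 1356 CPM, with a log2 ratio of 1.07.

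Signaling genes downstream of immune receptors divided. LAT, an adaptor of mast cells and T cells, had 215 CPM in straight against 61.6 CPM in curly cells (log2 ratio -1.80), and PTPN6, a phosphatase that dampens receptor signals, had 30 and 3 UMIs. LYN, a Src family kinase, had 36.7 and 123 CPM (log2 ratio 1.75), and CARD9, which relays signals of pattern receptors in myeloid cells, had 38.6 and 90.6 CPM (log2 ratio 1.23).

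RGS1, a regulator of chemokine receptor signals and a gene of tissue-resident leukocytes, had 711 CPM in straight against 1258 CPM in curly KIT-negative leukocytes. Cell cycle genes were low, with PCNA at 123 and 90.6 CPM.

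Beside shares of 8.01% higher and 11.1% lower over all genes, further lists gave, as genes at least 2-fold higher and lower in curly cells of those with at least 20 UMIs, 1 and 0 of 1 for T cells (CD8B), 0 and 1 of 1 for regulatory T cells (TNFRSF18) and for NK and cytotoxic cells (XCL1), 0 and 1 of 3 for type 2 lymphoid cells (IL1RL1), and 0 and 0 of 3 for tissue residence. They gave 0 and 0 of 2 for chemokine receptors, 1 and 1 of 6 for cytokines, 2 and 1 of 5 for pattern and Fc receptors, 3 and 4 of 13 for immune receptor signaling, 2 and 0 of 17 for dissociation response and 1 and 1 of 3 for cycling. Keratinocyte genes gave 3 and 1 of 10, endothelial genes 1 and 0 of 3, fibroblast genes 0 and 2 of 3, and smooth muscle genes 0 and 1 of 3. The gamma-delta T cell, melanocyte and erythroid lists had no gene with 20 UMIs, and the leukocyte core list belongs to the rule.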
